A study of Mus musculus with 6 samples.

Results

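Nodal signalling genes were followed by poly(A) RNA-seq in 6 libraries from mouse epiblast stem cells, a primed pluripotent cell type derived from the early embryo. The set held 10 genes chosen by name from the pathway, out of 52609 annotated genes with a transcript in the files: the ligand genes Nodal, Gdf3 and Gdf1, the co-receptor gene Tdgf1, the antagonist genes Lefty1, Lefty2 and Cer1, the convertase genes Pcsk6 and Furin, and the transcription factor gene Foxh1. Per the labels, cells of both groups grew on inactivated mouse embryonic fibroblasts and received FGF2 (10 ng/mL), the inhibitor of Wnt secretion IWP2 (5 µM) and SB431542 (2 µM), which inhibits the type I receptors that Activin and Nodal share. By title and genotype label, 3 libraries came from cells with Activin A (20 ng/mL) and 3 from cells without it. The labels do not say that replicates were separate cultures, so the p-values reflect only how far these samples spread, which may be technical spread.

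Nodal is a TGF-beta family ligand that acts on the same receptors and the same SMAD2 and SMAD3 proteins as Activin, but needs a co-receptor of the Cripto family. Its precursor is cut by proprotein convertases such as furin and PACE4, the product of Pcsk6. SMAD2 and SMAD3 act on DNA with the factor FOXH1, and Nodal and both Lefty genes are themselves known targets, so that the pathway feeds forward through Nodal and back through its Lefty inhibitors. In the epiblast this signal maintains primed pluripotency and patterns the embryo.

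Without Activin A, 5 of the 8 members that had enough reads to be tested were lower: Tdgf1 by 25.7-fold, Lefty1 by 18.9-fold, Nodal by 5.16-fold, Lefty2 by 4.07-fold and Gdf3 by 1.97-fold. No member was called higher. The calls are those of edgeR's quasi-likelihood test at a Benjamini-Hochberg adjusted p of 0.05 over 15448 genes, of which 15.2% were called lower and 14% higher. Furin, Pcsk6 and Foxh1 did not pass that test. Cer1 and Gdf1 had too few reads to be tested. In the same 5 genes every library without Activin A lay below every library with it, as was so for 21.6% of all genes tested. In 0 of the 8 did every library without Activin A lie above, as was so for 21.3% of all genes. The members' median log2 fold change, without minus with Activin A, was -1.50 over the 8 tested, beside 0.0012 over all genes tested. Of all genes ordered from the most negative log2 fold change, Tdgf1 stood at place 6, Lefty1 at 9, Nodal at 61, Lefty2 at 96 and Gdf3 at 575.

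**Figure D1:**
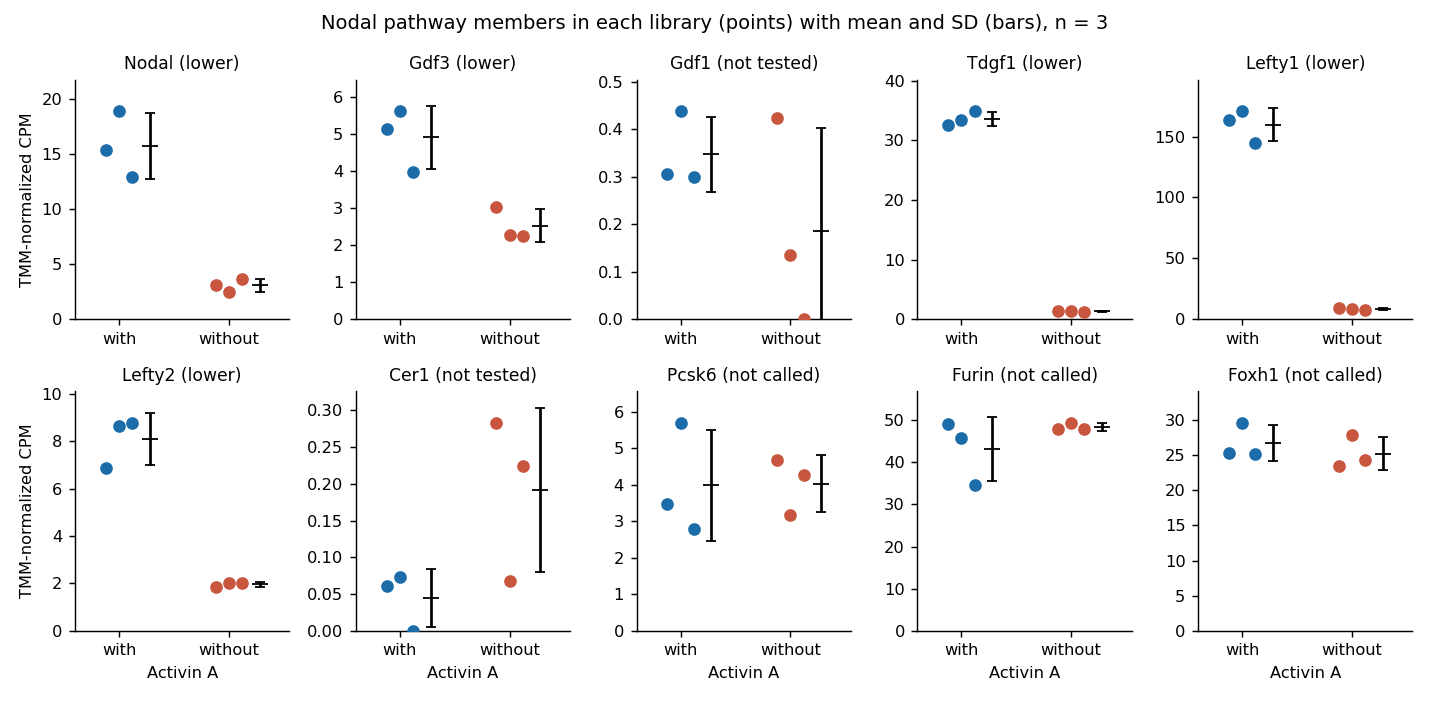
Each panel plots 1 gene as TMM-normalized CPM (reads of a gene relative to the library's total, scaled between libraries) in the 3 libraries with Activin A (blue points) and the 3 without (red points), with the mean and SD beside them as a bar, on an axis that starts at 0 and cuts the lower end of the bar of Gdf1 without Activin A. The points of Nodal, Gdf3, Tdgf1, Lefty1 and Lefty2 without Activin A all lie below those with it, while those of Pcsk6, Furin and Foxh1 overlap, and Gdf1 and Cer1 stay below 0.5 CPM in every library.

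The libraries held 9946521 to 16350923 estimated reads. The treatment text is the same for all 6 and lists Activin A, and replicate 1 of the group without it also carries Activin A under its growth factor label. With that library left out, the same 5 members were called lower. The design text speaks of 2 lines with 3 replicates each, and a difference between lines cannot be told apart from that of Activin A. All 10 markers of epiblast stem cells were detected, 8 of them lower and 2 higher without Activin A, and their summed level was 1924 to 1960 CPM with and 1303 to 1331 CPM without. That sum hides larger falls, of 3.94-fold for Nanog, 3.09-fold for Pou5f1 and 3.08-fold for Utf1. The 2 higher ones were Lin28a, at a mean of 338 CPM with and 537 CPM without, and Sox2 (1.33-fold). Of 10 markers of fibroblast feeders, 2 rose and 5 fell, and their summed level was 507 to 568 CPM with and 683 to 696 CPM without. The 2 that rose were the collagen genes Col1a1 (mean 234 CPM with and 341 CPM without) and Col1a2 (124 and 212 CPM). They had the highest levels of the 10, so the sum follows them and hides the falls. Those were of 2.31-fold for Col3a1, 2.25-fold for Thy1, 1.88-fold for Dcn, 1.82-fold for Postn and 1.19-fold for Col6a1. Of 10 markers of primitive streak and mesoderm, 4 were tested and 3 fell, and Mesp1 had 0 reads in every library. Of the others too low to test, T and Gsc had higher mean CPM without Activin A, and Mixl1, Evx1 and Fgf8 lower. The sum of the 10 was 9.29 to 9.96 CPM with and 4.79 to 5.73 CPM without. Their part in the results on the members was not tested. In bulk RNA fewer cells that express a gene and less RNA per cell cannot be told apart.

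Among the ligands, Nodal stood at 15.4, 19.0 and 13.0 CPM in replicates 1 to 3 with Activin A, and at 3.12, 2.49 and 3.66 CPM without. The groups did not overlap, and the lowest library with Activin A stood at 13.0 CPM against 3.66 CPM in the highest without. The means were 15.8 ± 3.01 and 3.09 ± 0.586 CPM (SD, n = 3 each), a log2 fold change of -2.37 with a 95% interval of -2.72 to -2.01 (edgeR adjusted p = 6.07e-08). The gene lies at chr10:61417972-61425338 (GRCm38, plus strand). Nodal has a single annotated transcript of 2095 bases in the files, other genes hold 0.145% of its 31-base words, and its reads numbered 37 to 259 per library.

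Gdf3, a ligand related to GDF1 that also uses Cripto, lies at chr6:122605403-122610087 on the minus strand. It had 5.13, 5.63 and 3.99 CPM with Activin A and 3.05, 2.29 and 2.24 CPM without. The gap between the groups was narrow, from 3.05 to 3.99 CPM. On 30 to 84 reads per library, its log2 fold change was -0.98, with a 95% interval of -1.38 to -0.57 (edgeR adjusted p = 0.00119).

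Gdf1, the third ligand gene, could not be measured on its own. It lies at chr8:70329817-70331587 (GRCm38, plus strand). All 1349 exonic bases of its annotated transcript lie inside exons of Cers1, a ceramide synthase gene on the same strand, and 100% of its 31-base words occur in Cers1. The files assign Gdf1 5, 6 and 3 reads with Activin A and 6, 2 and 0 without. Reads from the shared bases could come from either gene, so the 0 is an assignment and sets no upper limit on Gdf1. Cers1 itself had 70, 60 and 28 reads with and 27, 34 and 36 without. Reads of both genes were also summed, an alternative chosen after seeing the data. The sum stood at 4.17 ± 0.94 CPM with Activin A and at 2.49 ± 0.184 CPM without it (SD, n = 3 each), 1.71-fold lower (edgeR adjusted p = 0.00755). A change of Gdf1 apart from Cers1 was not detectable from these files.

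The co-receptor gene Tdgf1, which encodes Cripto and lies at chr9:110939603-110946158 on the minus strand, gave the largest fall among the 8 members tested. It stood at 32.6, 33.4 and 34.9 CPM with Activin A and at 1.35, 1.35 and 1.20 CPM without. The groups lay far apart, the libraries of each group were close together, and those without Activin A held only 16 to 20 reads each. Its log2 fold change was -4.68 with a 95% interval of -4.93 to -4.43 (edgeR adjusted p = 1.57e-12). The pseudogene Tdgf1-ps1 holds 12.5% of the 31-base words of Tdgf1. Of the 4 annotated transcripts, Tdgf1-201 took 92.8% to 97.2% of the gene's reads with Activin A and 80.9% to 100% without. Cfc1, the gene of the other Cripto family member, had 0 or 1 read per library.

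Nodal and Tdgf1 both fell, and the bases before their starts are shown for that reason. Promoter sequences were taken from RefSeq on GRCm38.p6, which matched 6 of the 10 members. The 250 bases before the start of Nodal lie at chr10:61417722-61417971 on the plus strand, and those of Tdgf1 at chr9:110946159-110946408 on the minus strand. Capitals mark matches to a searched motif on either strand.
Nodal: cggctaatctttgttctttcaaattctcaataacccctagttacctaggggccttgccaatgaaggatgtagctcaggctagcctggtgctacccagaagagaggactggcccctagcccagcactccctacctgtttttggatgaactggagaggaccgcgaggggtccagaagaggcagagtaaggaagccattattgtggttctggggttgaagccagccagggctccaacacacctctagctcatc
Tdgf1: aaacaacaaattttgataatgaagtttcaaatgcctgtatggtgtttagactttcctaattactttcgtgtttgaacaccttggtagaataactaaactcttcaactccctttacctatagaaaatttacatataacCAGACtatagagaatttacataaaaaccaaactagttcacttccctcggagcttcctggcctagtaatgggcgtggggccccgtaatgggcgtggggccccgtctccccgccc

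The motifs searched in the 300 bases from 250 before to 50 after a start, on both strands, were the SMAD binding element CAGAC, the SMAD palindrome GTCTAGAC, the GC-rich SMAD element GGCGCC and the FOXH1 motif AATNCACA, in which N is any base. None of these contains another whole motif, though GTCTAGAC ends in AGAC, as CAGAC does. CAGAC occurred 1 time in the Tdgf1 window and in 49.6% of 32817 promoters of the same length. The Nodal window held none of the 4 motifs. None of the 8 windows of the 6 matched members held AATNCACA, which 3.60% of all promoters held. Lefty1, Lefty2, Gdf3 and Foxh1 had no promoter sequence and were not searched. A match, or the lack of one, is a description of letters only, and bases outside these windows were not searched.

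Among the antagonists, Lefty1 (chr1:180935022-180938400, plus strand) stood at 164, 171 and 145 CPM with Activin A and at 9.28, 8.42 and 7.63 CPM without. No library of 1 group came near those of the other. The log2 fold change was -4.24 with a 95% interval of -4.43 to -4.05 (edgeR adjusted p = 2.39e-13). Lefty2, its neighbour at chr1:180893108-180899103 on the same strand, had 6.85, 8.63 and 8.78 CPM with Activin A and 1.84, 2.02 and 2.02 CPM without. The log2 fold change of Lefty2 was -2.03 with a 95% interval of -2.38 to -1.67 (edgeR adjusted p = 3.09e-07). It rests on 26 to 118 reads in a library, and its groups did not overlap either.

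The split of reads between Lefty1 and Lefty2 depends on the bases in which they differ, so the stretch that tells them apart best is shown. Over 1104 aligned coding bases the GENCODE transcripts Lefty1-201 and Lefty2-201 were 91.8% identical, with an identical run of up to 140 bases. The 90 bases with the most differences, 27, lie in exon 1, at chr1:180935144-180935233 in Lefty1 and chr1:180893218-180893307 in Lefty2 (GRCm38, plus strand). Capitals mark the bases that differ.
Lefty1, exon 1: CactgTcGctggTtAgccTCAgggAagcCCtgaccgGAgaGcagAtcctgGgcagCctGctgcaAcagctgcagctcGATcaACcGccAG
Lefty2, exon 1: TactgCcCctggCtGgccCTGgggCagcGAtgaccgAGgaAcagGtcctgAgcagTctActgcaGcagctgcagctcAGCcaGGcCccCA

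In all, 25.7% of the 31-base words of Lefty1 occurred in Lefty2, and 17.2% of those of Lefty2 in Lefty1. Reads from stretches that are identical in both genes can be placed only by the proportions seen elsewhere. With the reads of both genes summed, the pair had 168 ± 13.3 CPM with Activin A and 10.4 ± 0.741 CPM without (SD, n = 3 each), 16.1-fold lower (edgeR adjusted p = 1.62e-13). That sum does not depend on how reads were divided between the 2 genes.

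Cer1, at chr4:82881751-82885148 on the minus strand, encodes the secreted Nodal and BMP antagonist Cerberus. It had 1, 1 and 0 reads with Activin A and 4, 1 and 3 without. At this depth 3 reads correspond to 0.183 to 0.299 CPM, so a difference was not detectable. Of 10 endoderm markers, a cell type in which Cer1 and Lefty1 are also known, 3 had enough reads to be tested. Sox7 (2.14-fold, edgeR adjusted p = 0.0352) and Hhex (1.82-fold, edgeR adjusted p = 0.0143) were higher without Activin A and Amn was lower (2.15-fold, edgeR adjusted p = 0.034). Ttr had 0 reads in all libraries, and the summed level of the 10 was 3.44 to 4.19 CPM with Activin A and 4.92 to 5.68 CPM without. No endoderm marker exceeded 44 reads in a library, and their part in the results on the members was not tested.

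The convertase genes did not pass the test. Furin, the ubiquitous convertase of the secretory pathway (chr7:80388585-80405436, minus strand), stood at 49.1, 45.8 and 34.6 CPM with Activin A and at 47.8, 49.5 and 47.9 CPM without. The groups overlapped, and replicate 3 with Activin A, the shallowest library, stood below the other 5. The log2 fold change was 0.15 with a 95% interval of -0.07 to 0.36 (edgeR adjusted p = 0.299). Pcsk6 (chr7:65861734-66050386, plus strand) stood at 3.48, 5.71 and 2.79 CPM with Activin A and at 4.68, 3.17 and 4.26 CPM without. These groups overlapped too, on 28 to 78 reads per library. The log2 fold change of Pcsk6 was -0.01 with a 95% interval of -0.52 to 0.50 (edgeR adjusted p = 0.985), an interval that holds changes in both directions.

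Foxh1, the DNA-binding partner of SMAD2 and SMAD3 (chr15:76668225-76669948, minus strand), did not pass the test either. It had 25.2, 29.6 and 25.1 CPM with Activin A and 23.5, 27.9 and 24.3 CPM without, and the groups overlapped. The log2 fold change was -0.08 with a 95% interval of -0.27 to 0.11 (edgeR adjusted p = 0.546). No 31-base word of Foxh1 occurred in another gene.

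**Figure D2:**
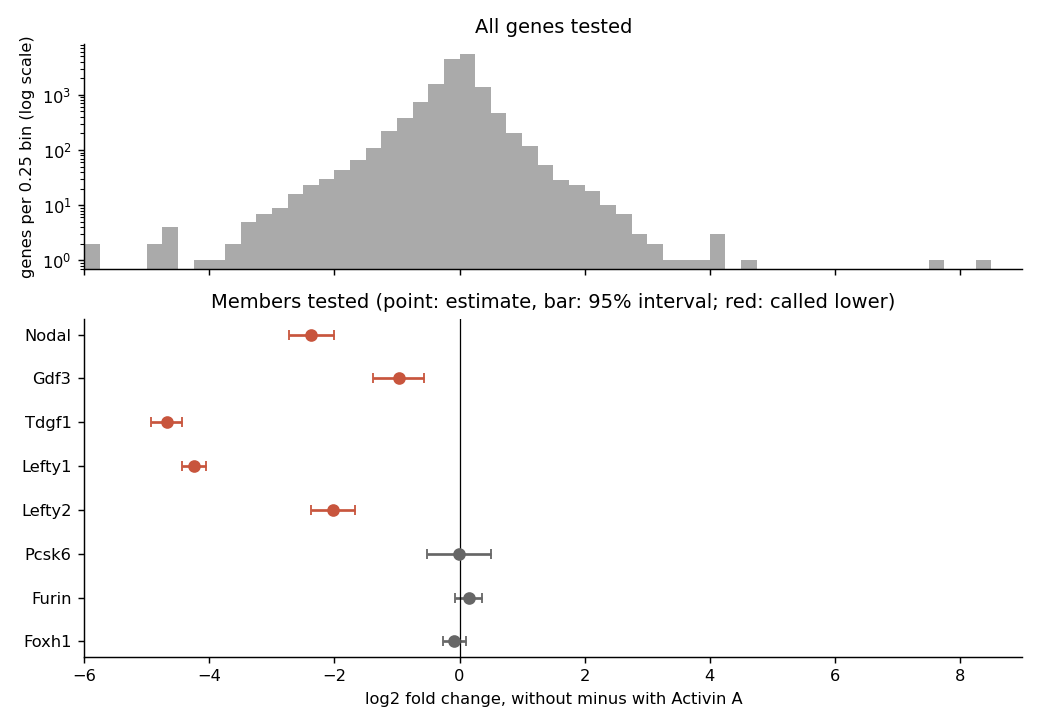
The upper panel counts all 15448 genes tested in bins of 0.25 of log2 fold change, without minus with Activin A, on a log scale. The lower panel gives the 8 members tested as points with 95% intervals, where the 5 called lower (red) run from -4.68 for Tdgf1 to -0.98 for Gdf3 and the intervals of Pcsk6, Furin and Foxh1 (grey) hold 0.

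Levels were compared between genes per length, as the TPM (a relative level scaled by transcript length and library total) of protein-coding transcripts of at least 1000 bases. With Activin A the order was Lefty1 at 67.1 ± 0.497 TPM, Foxh1 at 14.1 ± 1.03, Tdgf1 at 11.9 ± 0.838, Furin at 6.07 ± 0.939, Nodal at 5.28 ± 0.714, Lefty2 at 2.27 ± 0.374, Gdf3 at 1.62 ± 0.185 and Pcsk6 at 0.652 ± 0.24 TPM (SD, n = 3 each). The values of Furin and Nodal overlapped between libraries, while those of the other neighbours in that order did not. Without Activin A, Foxh1 and Furin led at 13.1 ± 1.92 and 6.99 ± 0.239 TPM, and Lefty1 followed at 3.50 ± 0.65 TPM. Below them came Nodal at 1.05 ± 0.177, Gdf3 at 0.846 ± 0.141, Pcsk6 at 0.64 ± 0.0848, Lefty2 at 0.552 ± 0.0375 and Tdgf1 at 0.46 ± 0.091 TPM. There the pairs Nodal and Gdf3, Pcsk6 and Lefty2, and Lefty2 and Tdgf1 overlapped between libraries. Gdf1, by the reads assigned to it, and Cer1 were last in both groups, below 0.25 TPM in every library.

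The members that fell did not fall by the same factor, which ratios within each library show on the TPM scale. Lefty1 and Lefty2 together stood at 18.0, 15.9 and 18.0 times the level of Nodal with Activin A and at 5.83, 5.22 and 5.02 times without, all transcripts counted. This Lefty to Nodal ratio was 3.23-fold lower without Activin A, with no overlap between the groups. In that count the retained-intron transcript Lefty1-202 held 25.1%, 28.6% and 18.1% of Lefty1 TPM with Activin A and 33.0%, 0% and 50.9% without. The ratio was also taken with each gene's leading transcript alone, the protein-coding one with the most reads, an alternative chosen after seeing the data. It then stood at 13.6, 11.4 and 14.8 with Activin A and at 4.07, 5.22 and 2.70 without, 3.43-fold lower. The ratio of Lefty1-201 to Lefty2-201 went from 30.2 ± 5.34 to 6.36 ± 1.24, and that of Tdgf1-201 to Nodal-201 from 2.28 ± 0.446 to 0.455 ± 0.157 (SD, n = 3 each). The ratio between the Lefty genes depends on how reads were split between them, an uncertainty that its SD does not measure. It also rests on 26, 30 and 27 Lefty2 reads without Activin A. Foxh1-201 stood at 2.69 ± 0.339 times Nodal-201 with Activin A and at 12.8 ± 3.79 times without. A two-sided exact permutation test gave p = 0.1 for each of 7 ratios, or 0.1 after Benjamini-Hochberg adjustment over them, and 3 libraries against 3 cannot give a smaller p. The ratios other than that of the Lefty pair to Nodal were also added after seeing the data.

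**Figure D3:**
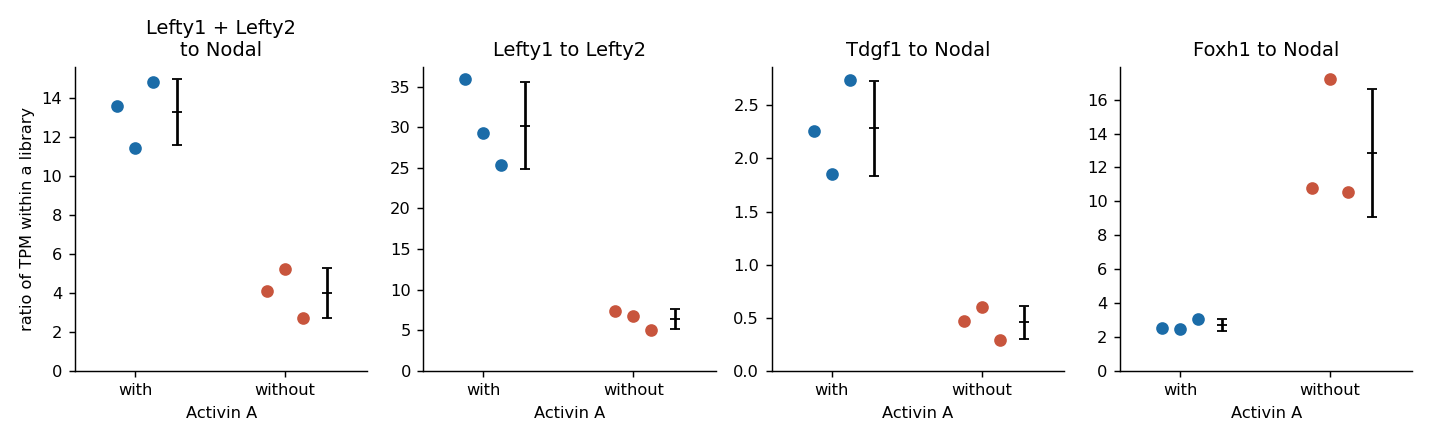
Each panel plots the ratio of TPM between the leading transcripts of members within a library, on an axis from 0, for the 3 libraries with Activin A (blue) and the 3 without (red), with the mean and SD as a bar. The ratios of the Lefty pair to Nodal, of Lefty1 to Lefty2 and of Tdgf1 to Nodal are lower in all 3 libraries without Activin A, and the ratio of Foxh1 to Nodal is higher in all 3.

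Tested one by one among 39997 transcripts with edgeR's quasi-likelihood test, 4 of the 15 member transcripts tested (of 29 in the files) were called lower and 0 higher, where 1.44% of all transcripts tested were called lower and 1.28% higher. They were Tdgf1-201, Lefty1-201, Nodal-201 and Lefty2-201. With limma-trend the counts were also 4 and 0. Gdf3-201, the single transcript of Gdf3 with reads, had a log2 fold change of -0.99 (SE 0.25) and did not pass (edgeR adjusted p = 0.127). The transcript test called far fewer features than the gene test, 2.71% against 29.2%. With replicate 1 of the group without Activin A left out it called 2 of the 4 member transcripts and lost Nodal-201 (adjusted p = 0.0658) and Lefty2-201 (adjusted p = 0.0594). Lefty2-201 was also lost without replicate 2 (adjusted p = 0.0551) or replicate 3 (adjusted p = 0.0549) of the group without Activin A. Lefty1-202, an annotated retained-intron transcript of 583 bases, held 5.1% to 8.9% of Lefty1 reads with Activin A, and 10.7%, 0% and 20.1% in the 3 libraries without, on at most 20.6 reads.

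The files did not place the reads of Pcsk6 on its transcripts in a stable way. Pcsk6-201, Pcsk6-202 and Pcsk6-204 are long protein-coding transcripts of 4405, 4207 and 3734 bases. Pcsk6-201 took 75.2%, 0% and 31.9% of the gene's reads with Activin A, Pcsk6-202 took 0.309%, 19.3% and 32.4%, and Pcsk6-204 took 24.5%, 79.4% and 35.7%. Without Activin A, Pcsk6-202 took 88.8% of the reads in replicate 1 and 20.0% and 29.3% in the others. Replicates of 1 group thus differed in which transcript led, and the shares of the groups overlapped. For Furin, Furin-201 led in every library with 73.0% to 85.5% of the reads.

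**Figure D4:**
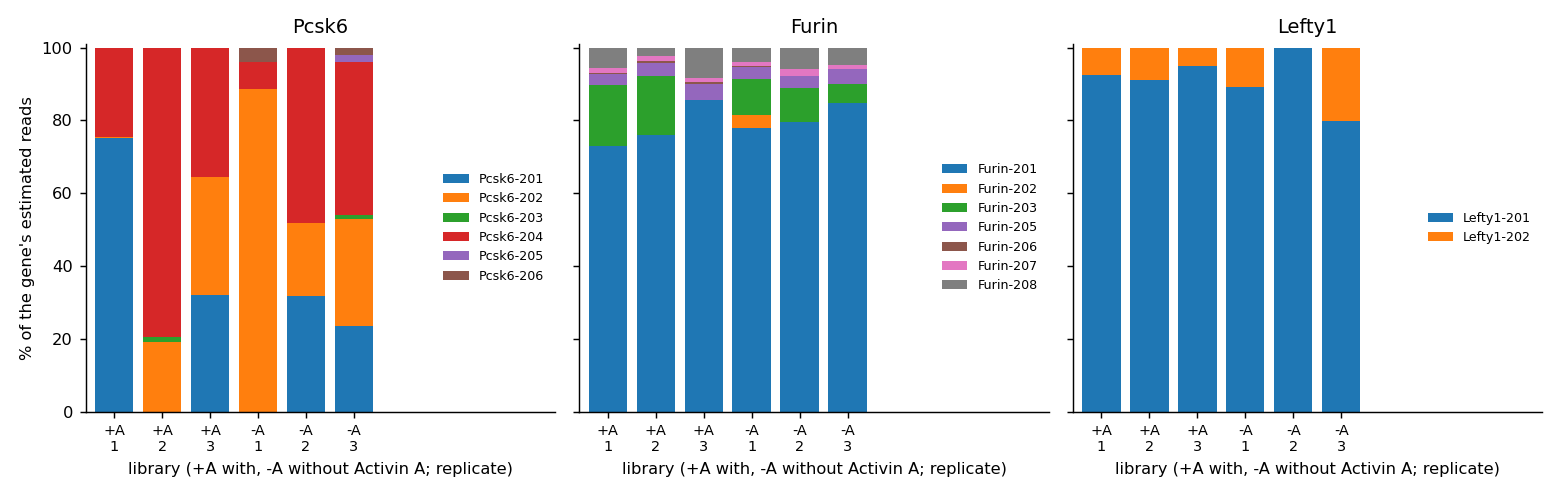
Stacked bars give the share of a gene's estimated reads on each annotated transcript in each library, in percent, for Pcsk6, Furin and Lefty1 (+A with and -A without Activin A, replicates 1 to 3). The leading transcript of Pcsk6 changes between replicates, from Pcsk6-201 at 75.2% to Pcsk6-204 at 79.4% with Activin A, while Furin-201 and Lefty1-201 lead in all 6 libraries.

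Around the members, 43 other genes of the pathway were read by role, of which 37 were tested, 6 rose, 12 fell and 19 did not pass. Their median log2 fold change was 0.01, beside 0.0012 over all genes. Of all genes tested, 15.2% were called lower and 14% higher, the shares to set beside these counts and those by role below. Of 9 genes known as targets in the embryo 5 were tested and all 5 fell. Some of them, Otx2 and Eomes included, are also among the markers counted above, and Eomes had only 4 to 15 reads per library. Pmepa1, a membrane protein gene that restrains SMAD2 and SMAD3, went from 20.01 ± 0.922 to 3.02 ± 0.223 CPM, 6.62-fold lower (SD, n = 3 each, edgeR adjusted p = 2.31e-10). Its log2 fold change was -2.73, and -1.79 with limma-trend at a pseudocount of 1. Otx2, a homeobox gene of the anterior epiblast, was 1.48-fold lower. Eomes, a T-box factor of the streak, was called lower at 0.98 ± 0.056 against 0.331 ± 0.0454 CPM, a call lost with DESeq2 (adjusted p = 0.0655), limma-trend at a pseudocount of 1 (adjusted p = 0.13) or 0.1 (adjusted p = 0.0885) and the transcript length offset (adjusted p = 0.0688). The 4 not tested were Mixl1, Gsc, Foxa2 and T, which did not all lean lower. T had 2, 6 and 3 reads with Activin A and 16, 6 and 4 without, and Gsc 5, 3 and 5 against 10, 5 and 4. Mixl1 had 3, 4 and 3 reads against 2, 0 and 3, and Foxa2 1, 2 and 0 against 0 in each.

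Of 7 receptor and co-receptor genes 5 were tested, 2 rose and 0 fell. The type II receptor gene Acvr2a rose 1.39-fold and the type I receptor gene Tgfbr1 1.23-fold, while Acvr1b, which encodes the type I receptor ALK4 for Activin and Nodal, had 44.6 ± 1.87 against 41.8 ± 0.708 CPM and missed the threshold (edgeR adjusted p = 0.251). Acvr2b did not pass either, at 23.5 ± 0.531 against 26.1 ± 0.774 CPM. The Acvr2a call was lost with limma-trend on TPM (adjusted p = 0.102 with a pseudocount of 1 and 0.101 with 0.1). Tgfbr1 lost its call in the same settings (adjusted p = 0.153 and 0.155), with the length offset (adjusted p = 0.0553) and when replicate 3 without Activin A was left out (adjusted p = 0.0524).

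Of 12 genes for SMADs and their partners, 2 rose, 4 fell and 6 did not pass. Smad2 rose 1.34-fold and Smad3 1.13-fold, from 113 ± 2.92 to 128 ± 2.51 CPM, the latter not called on leaving out replicate 1, 2 or 3 of the group without Activin A (adjusted p = 0.054, 0.0909 and 0.0558). The log2 fold change of Smad3 was 0.17 on the counts but 0.78 with the transcript length offset (adjusted p = 0.0174), and 0.82 and 0.85 with limma-trend on TPM at pseudocounts of 1 and 0.1 (adjusted p = 0.0161 and 0.0156). The feedback repressor gene Skil went from 170 ± 22.5 to 94.2 ± 2.89 CPM, 1.80-fold lower (SD, n = 3 each, edgeR adjusted p = 2.9e-06), and the inhibitory SMAD gene Smad7 was 1.48-fold lower. Both calls were lost with limma-trend on TPM, at adjusted p-values of 0.06 and 0.0579 for Skil and of 0.238 and 0.237 for Smad7, and that of Smad7 also with the length offset (adjusted p = 0.17).

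Of 6 other ligand genes 1 rose and 2 fell. Inhba and Inhbb, which encode the chains of the activins, were 1.70-fold and 1.63-fold lower, and Tgfb3 rose 1.68-fold. The calls of Inhba and Inhbb were lost on leaving out single libraries. For Inhba these were replicate 1 with Activin A (adjusted p = 0.0778) and replicate 2 without (adjusted p = 0.0784), and for Inhbb replicate 1 with (adjusted p = 0.103) and replicates 1 and 2 without (adjusted p = 0.0557 and 0.0558). Inhbb also lost its call with limma-trend on TPM (adjusted p = 0.145 and 0.161) and the length offset (adjusted p = 0.0736). Gdf11 had 9.6 ± 0.908 against 11.01 ± 1.44 CPM and did not pass. Of 5 other inhibitor genes 1 fell, Fst, which encodes the activin-binding follistatin, at 2.94 ± 0.739 against 1.49 ± 0.307 CPM. That call was lost with limma-trend on TPM (adjusted p = 0.292 and 0.277) and the length offset (adjusted p = 0.244). Dand5, a Nodal antagonist gene of the Cerberus family, had 5.23 ± 0.633 against 5.00 ± 0.866 CPM, and Fstl3 and Ncln did not pass either. Among 4 other convertase genes Pcsk2 rose 1.60-fold, a call lost with limma-trend at a pseudocount of 0.1 (adjusted p = 0.0674), and Pcsk5, Pcsk7 and Pcsk1 did not pass.

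Genes with a pattern like that of Nodal were ranked over the 6 libraries by the Euclidean distance between log2(CPM + 0.5) profiles, each centred on its own mean, among 3522 candidates, which were protein-coding, called in either direction and at 5 CPM or more on average. Nearest were the sulfotransferase gene Chst1 at a distance of 0.496, the claudin gene Cldn11 at 0.522, the potassium channel gene Kcnq3 at 0.532, Tmem254b at 0.535 and the growth factor gene Fgf4 at 0.587. Fgf4 went from 11.4 ± 0.026 to 2.36 ± 0.269 CPM (SD, n = 3 each). Lefty1 and Tdgf1 were each other's nearest gene, at a distance of 0.282, followed for both by the calcitonin receptor gene Calcr (0.591 from Lefty1 and 0.479 from Tdgf1) and by Doc2a (1.58 and 1.7). These distances describe these 6 libraries and share the same 2 groups for every gene.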

How the data were processed

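Each deposited file lists transcripts with an estimated count and a TPM, in salmon's columns per the file headers. The estimated counts are not normalized, and the deposited TPM values are scaled by effective length and library total. Salmon, DESeq2 and edgeR are named in the submitters' processing notes; build, annotation and strand setting: not given in the sources used here. Of 133618 transcripts, 133399 matched GENCODE M21 (GRCm38) with the version ignored. The 219 unmatched held 0.131% to 0.149% of reads and were left out. Estimated counts were summed per gene, rounded, filtered with filterByExpr (minimum count 10, minimum total 15), scaled by TMM and tested with a robust quasi-likelihood F test in edgeR 4.0.16 (R 4.3.3), without against with Activin A, with Benjamini-Hochberg adjustment over all genes tested. A standard error is the log2 fold divided by the square root of F, and 95% intervals use the test's degrees of freedom. CPM means are given with SD. Transcripts were tested in the same way, without the uncertainty of the split between them. Shared words of 31 bases were counted on both strands. The tests were checked on counts simulated with the same spread for every gene. That check does not cover the uneven spread between replicates seen here.

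The members and lists were chosen with earlier results of these data known. All members were named, and of other pathway genes up to 4 per role, called ones with the smallest p first and then the others in alphabetical order. The alternatives tried were scaling by RLE or the upper quartile, DESeq2 1.42.0 in place of edgeR, limma-trend (limma 3.58.1) on log2(TPM + 1) and log2(TPM + 0.1), whose folds understate changes of low genes, no filter, a filter of 1 CPM in 3 libraries, a transcript length offset, a block for the replicate number, and each library left out in turn. Every pair of replicates differed by more than sampling noise. The 95% intervals include the estimated spread between libraries, while floors on reads cover counting error only. Some items of the lists are not reported here.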

Additional observations from a re-analysis of the deposited data

How the results depend on the processing

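The 5 falls kept their direction and passed the threshold in all 15 alternatives each (9 settings and the removal of each of 6 libraries), also without the library whose growth factor label names Activin A and the shallowest one together, added after seeing the data. Their log2 folds ranged from -2.50 to -1.61 for Nodal, -4.80 to -3.37 for Tdgf1, -4.31 to -3.89 for Lefty1, -2.15 to -1.07 for Lefty2 and -1.13 to -0.51 for Gdf3, the smallest size of each coming with TPM and a pseudocount of 1. No alternative called a member higher. Over all genes the count called was 1559 and 1504 with limma-trend at pseudocounts of 1 and 0.1 and 2050 with the length offset, against 4505, and the count called lower was 781, 752 and 1113, against 2350; the cause was not tested.

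With the replicate block the 5 member calls stayed, while member transcripts called lower numbered 2 in place of 4, Nodal-201 (adjusted p = 0.122) and Lefty2-201 (adjusted p = 0.0953) being lost. Same-numbered libraries had correlations of -0.0113, -0.0295 and -0.0486 between their deviations from the group means. The labels do not say whether the numbers pair the samples, and correlations from so few libraries cannot decide it. On leaving out libraries the count of member transcripts called lower ranged from 2 to 4.

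The sign of results that never passed turned in some settings; the cause was not tested. Pcsk6 was 0.0027 with DESeq2, 0.15 and 0.316 with limma-trend, 0.265 with the length offset, 0.0152 with the block, and 0.33 and 0.145 on removing libraries, within a range of -0.175 to 0.33. With limma-trend at both pseudocounts and the length offset, Foxh1 was 0.0448, 0.0466 and 0.0061, Acvr2b -0.0747, -0.0824 and -0.135, and Pcsk1 -0.153, -0.574 and -0.791. On removing libraries the range was -0.16 to 0.00010004 for Foxh1, -0.216 to 0.026 for Dand5, -1.44 to 0.577 for Pcsk6-201, -1.20 to 0.39 for Pcsk6-204, -1.02 to 0.0482 for Furin-203 and -0.253 to 0.288 for Furin-208. Furin-203 was 0.392 with the replicate block. Depth limits Cer1, which had 0 to 4 reads per library. Gdf1 is limited by the sequence it shares with Cers1.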

Other observations

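Furin-203, a protein-coding transcript of 4286 bases, was assigned 134.6, 100.9 and 0 reads with Activin A and 67.3, 67.3 and 33.6 without. Within a tolerance of 0.02 these are whole multiples of 33.6 reads, up to 4 times that value, in the 5 libraries in which it was above 0. No other member transcript with at least 3 values above 0 and a smallest one above 5 reads had such steps. What sets the steps was not tested.

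The TPM of Furin rests largely on another transcript. Furin-208, a nonsense-mediated decay transcript of 378 bases with an effective length of 129 bases, held 2.37% to 8.39% of the gene's reads but 38.5% to 68.7% of its summed TPM over the 6 libraries. A level of Furin per length therefore depends on whether short transcripts are counted. With all transcripts summed it was 18.5 ± 4.88 TPM with Activin A and 19.2 ± 2.8 TPM without, against 6.07 ± 0.939 and 6.99 ± 0.239 TPM from its long protein-coding transcripts (SD, n = 3 each).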
